A study of Mus musculus with 12 samples.

Results

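The enzymes described here attach ubiquitin to proteins or take it off again: the ubiquitin-conjugating enzymes (E2) and the deubiquitinases of the USP, UCH and OTU families. Members were all genes whose symbol in the platform annotation starts with Ube2, Usp and a digit, Uchl or Otu, taken from probe sets with 1 gene symbol. They came to 94 of the 15964 genes on the arrays, measured by 213 probe sets. Classes follow the start of the name, except for a few genes placed by known function. By these, 29 were E2 enzymes, 2 were E2 variants that lack the catalytic cysteine, and 46 were of the USP, 3 of the UCH and 10 of the OTU family. Whether each member of these families is an active deubiquitinase was not checked. The other members were 1 pseudogene (Ube2d-ps) and 3 genes of other function that share the start of a name (Ube2cbp, Usp6nl and Otulinl).

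The study compared 4 types of isolated mouse germ cells. These were type A spermatogonia and type B spermatogonia (the mitotic cells), pachytene spermatocytes (in meiotic prophase) and round spermatids (haploid cells after meiosis), called type A, type B, pachytene and round spermatids below. Total RNA of each went through Affymetrix one-cycle labelling and onto the 3 Affymetrix designs U74Av2, U74Bv2 and U74Cv2, which carry largely different genes, so that 12 arrays gave 1 array per cell type and design. No genotype, strain, age, treatment or method of isolation is given in the sources used here for any of the 4 groups, which differ by cell type alone in the labels, and whether cells of several animals were pooled is not given either. With 1 array per cell type no difference has a replicate check, no p-value is given, and every value is that of a single array. The deposited values are array signals on a linear scale without unit. A floor was set at 0.4 of the mean signal of the design, which lies between 50.01 and 50.03, and a signal under it was counted as the floor, so that a ratio against such a signal is given as "at least". Genes were called different at 2-fold, and signals are compared only within a probe set, never between genes.

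Ubiquitin is activated by an E1 enzyme, passed to an E2 and joined to its target with the help of an E3 ligase, which picks the target, while deubiquitinases remove it or trim its chains. Chains of different linkage send proteins to the proteasome, sort membrane receptors or mark sites of DNA repair. In the male germ line ubiquitin on histones goes with meiotic silencing of the sex chromosomes and with the exchange of histones in spermatids, and much protein is degraded as the spermatid is remodelled. The testis also holds germ cell forms of general enzymes, of which Ube2d2b (a testis form of the broad-acting E2 Ube2d2a) and Otub2 (a relative of the widely expressed Otub1) are members here.

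Promoter sequences from RefSeq, build GRCm38.p6, are shown for the 4 germ cell forms that were higher in the later cell types and for Otub1, the general form set against Otub2. Each runs 5′ to 3′ from 250 bases before to 50 bases after an annotated start. Capitals mark a cAMP response element, whole (TGACGTCA) or its core TGACGT, on either strand, and the X-box-like letters GTTGCNNNGCAAC.
Ube2d2b, chr5:107829912-107830211, plus strand: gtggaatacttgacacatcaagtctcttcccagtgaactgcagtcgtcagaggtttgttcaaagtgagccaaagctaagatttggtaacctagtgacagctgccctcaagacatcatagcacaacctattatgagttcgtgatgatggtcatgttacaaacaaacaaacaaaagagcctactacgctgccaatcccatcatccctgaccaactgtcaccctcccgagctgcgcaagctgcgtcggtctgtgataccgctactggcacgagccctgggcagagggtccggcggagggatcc
Ube2u, chr4:100478617-100478916, plus strand: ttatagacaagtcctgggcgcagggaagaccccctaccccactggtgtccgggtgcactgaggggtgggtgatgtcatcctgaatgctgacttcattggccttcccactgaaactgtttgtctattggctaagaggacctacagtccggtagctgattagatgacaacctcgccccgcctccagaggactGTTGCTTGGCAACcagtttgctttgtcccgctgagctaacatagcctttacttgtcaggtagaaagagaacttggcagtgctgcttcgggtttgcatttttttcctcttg
Otub2, chr12:103388431-103388730, plus strand: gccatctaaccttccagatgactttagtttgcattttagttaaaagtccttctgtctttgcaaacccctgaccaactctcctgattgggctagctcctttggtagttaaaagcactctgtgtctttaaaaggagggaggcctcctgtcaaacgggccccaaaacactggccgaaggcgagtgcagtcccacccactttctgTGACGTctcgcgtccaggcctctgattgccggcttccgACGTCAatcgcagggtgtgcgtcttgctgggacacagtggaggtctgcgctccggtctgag
Usp2, chr9:44084670-44084969, plus strand: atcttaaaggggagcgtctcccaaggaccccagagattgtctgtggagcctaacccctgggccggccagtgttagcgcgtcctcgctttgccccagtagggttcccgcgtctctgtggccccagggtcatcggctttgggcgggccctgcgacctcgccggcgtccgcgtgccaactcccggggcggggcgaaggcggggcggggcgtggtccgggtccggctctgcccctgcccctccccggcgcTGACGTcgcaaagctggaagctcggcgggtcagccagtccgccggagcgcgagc
Otub1, chr19:7206235-7206534, minus strand: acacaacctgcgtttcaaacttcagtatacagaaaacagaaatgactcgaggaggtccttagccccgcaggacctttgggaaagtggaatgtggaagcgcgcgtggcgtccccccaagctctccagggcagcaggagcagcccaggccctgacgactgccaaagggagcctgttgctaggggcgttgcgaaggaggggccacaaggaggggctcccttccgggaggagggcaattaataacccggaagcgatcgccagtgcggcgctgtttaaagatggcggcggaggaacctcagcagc
Ube2u alone among 88 listed promoters of 75 members held the X-box-like letters, which 0.225% of all 32851 listed promoters hold. The core of the cAMP response element, which is also part of the whole one, was in 16 of the 88 member promoters (18.2%), against 7.51% of all listed promoters and 9.89% of the 16015 that belong to genes on the arrays. The second start of Otub2 held it at 2 places and Usp2 at 1 place, while Ube2d2b, Otub1 and the first listed start of Otub2 (chr12:103376644-103376943) held none. A further listed start of Otub2 (chr12:103388432-103388731) overlaps the second, holds the same matches and is counted apart. The whole element was in the promoters of Otud7a, Ube2b, Ube2h and Usp29, against 1.79% of all listed promoters. None of these was among the members at least 2-fold higher in both later cell types. The core was in 4 of the 12 listed promoters of those higher members (33.3%: Ube2j1, Ube2s, Usp2 and Usp8). It was in 1 of the 15 of the members lower in both (6.67%). These sets are small and no difference between them was tested. Member promoters held a median of 29 CpG, against 17 for genes on the arrays. The core itself holds a CpG, and its shares were not adjusted for CpG content. Of the printed ones, Ube2u held 7, Ube2d2b 11, Otub2 13, Otub1 18 and Usp2 33. The motifs were chosen with the sequences in view, a match of letters is a description only, and the arrays do not show which start was in use.

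The change between type B and pachytene was the widest among members. Of 94 members, 20 (21.3%) were at least 2-fold higher in pachytene than in type B, where 13.2% of all genes were, and 15 (16%) were lower, where 17.9% of all genes were. From type A to type B, 2 members were higher (2.13%, all genes 2.93%) and 4 were lower (4.26%, all genes 2.95%), both near the background. From pachytene to round spermatids, 8 members were higher (8.51%, all genes 7.39%) and 8 were lower (8.51%, all genes 9.63%), again near it. When both later cell types were set against both spermatogonia, 14 members (14.9%) were at least 2-fold higher, 7.35% of all genes being so, and 12 (12.8%) were lower, 10.2% of all genes being so. The median log2 ratio of the members was -0.16, 0 and 0 at the 3 steps, and that of all genes was 0 at each. The split between higher and lower depends on the scaling: with arrays set to a common median, 25 members were higher and 8 lower in pachytene than in type B, and all genes stood at 19.3% and 9.43%. With arrays set to the bacterial spike-in controls the counts were 26 and 6, with all genes at 21.3% and 7.4%.

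**Figure D1:**
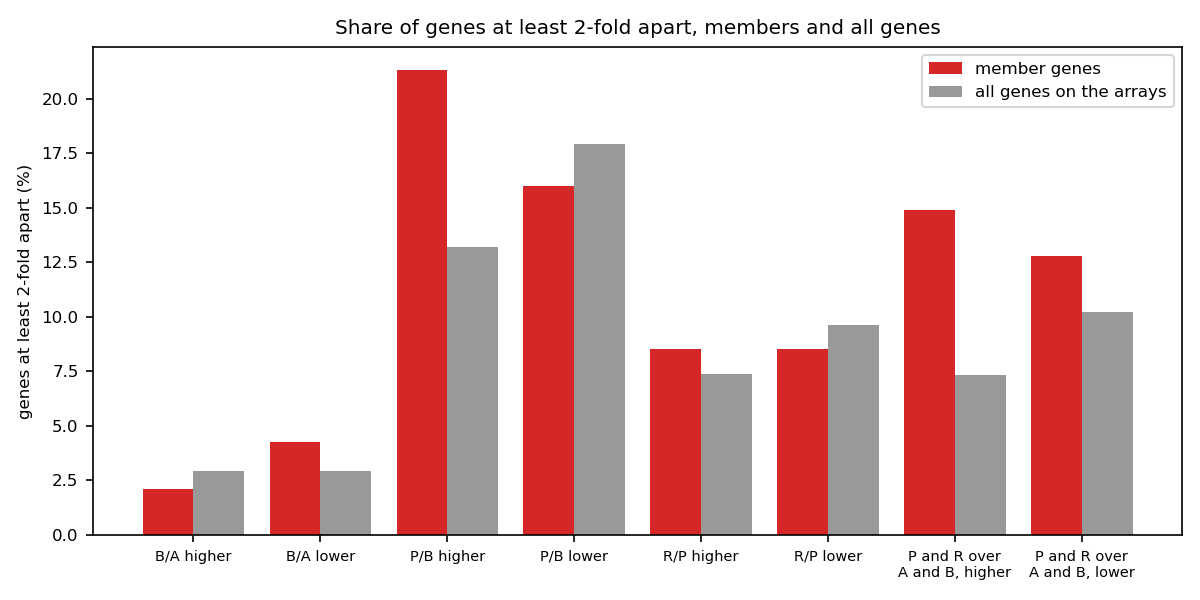
Bars give the percentage of the 94 member genes (red) and of the 15964 genes on the arrays (grey) that were at least 2-fold apart in each comparison (A, type A; B, type B; P, pachytene; R, round spermatids). Members stand above all genes for higher signals in pachytene than in type B (21.3% against 13.2%) and in both later cell types (14.9% against 7.35%), and lie within 2 percentage points elsewhere but for the calls of the lower kind in both later cell types (12.8% against 10.2%).

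The members that were at least 2-fold higher in both later cell types were the E2 genes Ube2d2b, Ube2u, Ube2s and Ube2j1, the deubiquitinase genes Usp1, Usp2, Usp8, Usp15, Usp16, Usp20, Usp32, Uchl3 and Otud7b, and the pseudogene Ube2d-ps. Those that were lower were Ube2d3, Ube2g1, Ube2z, Usp12, Usp22, Usp26, Usp28, Usp35, Usp36, Usp48, Uchl1 and Otud5. Of the 94 members, 89 were over the floor in some cell type and 64 in all 4. Of all 15964 genes, 13003 were over it in some cell type and 2961 in none. A gene at the floor everywhere cannot be called, and such genes count in the shares of all genes. The highest signal of the 89 members was in type A for 30, in type B for 20, in pachytene for 18 and in round spermatids for 21. This split was not counted over all genes. The 5 members at the floor everywhere were Usp17la, Usp17lc, Usp18, Usp29 and Otulinl.

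**Figure D2:**
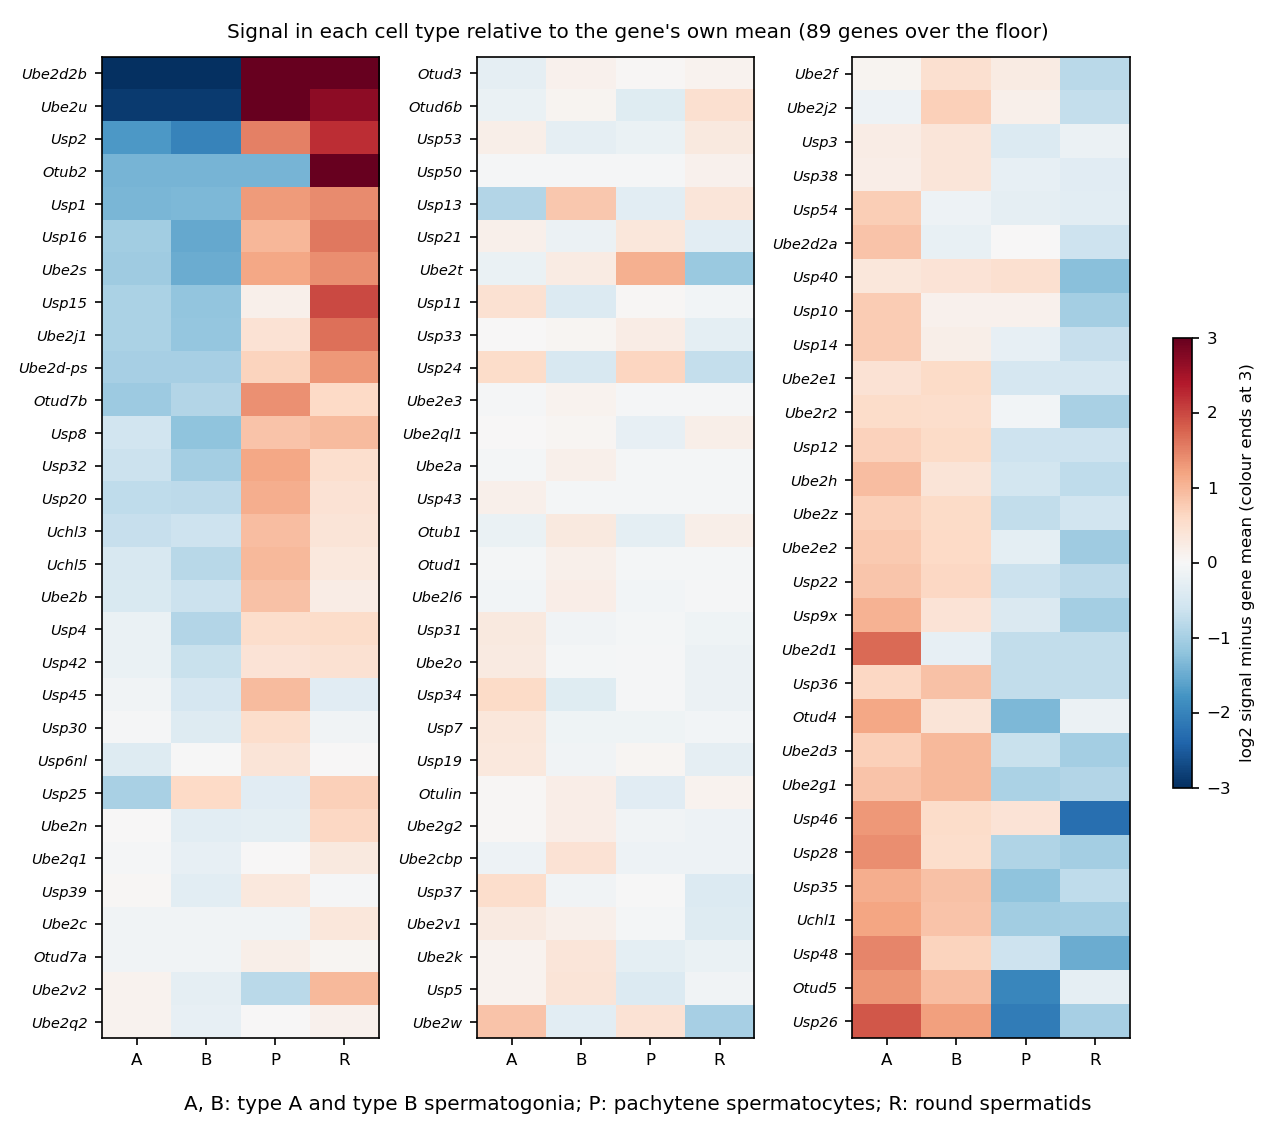
Each row is 1 of the 89 members over the floor and each column a cell type (A, type A; B, type B; P, pachytene; R, round spermatids), coloured by the log2 signal minus the gene's own mean over the 4 arrays, with signals under the floor set to it. Rows are ordered by the difference between the later cell types and the spermatogonia, with Ube2d2b, Ube2u, Usp2 and Otub2 at the top of the first block and Otud5 and Usp26 at the foot of the third.

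Ube2d2b was the member with the widest change. Its signals were 83.5 in type A, 95.9 in type B, 9419 in pachytene and 9217 in round spermatids. Both spermatogonia were close to background (the highest negative control of that design read 103.5, in type B), both later cell types were far above it, and pachytene and round spermatids lay 1.02-fold apart. Set against that negative control, pachytene was at least 91.0-fold higher than type B. The 3 general enzymes of the same family, which serve many E3 ligases, ran the other way or stayed low. Ube2d1 read 269 in type A, 70.3 in type B, 20.6 in pachytene and 19.5 in round spermatids, and so was 3.82-fold lower in type B than in type A (at least 2.60-fold against the highest negative control, which its type B signal did not exceed) and under the floor in both later cell types. Ube2d2a read 139.8 in type A, 66 in type B, 78.4 in pachytene and 40.4 in round spermatids. Ube2d3 read 167 in type A, 201 in type B, 64 in pachytene and 46.9 in round spermatids. Its pachytene signal was thus 3.13-fold lower than that of type B, a ratio that was 2-fold or more in 1 of its 3 probe sets and over 1 and under 2-fold in the other two (1.54-fold and 1.51-fold lower). With arrays set to the spike-in controls the log2 ratio of Ube2d3 at this step was -0.87, and so under 2-fold. The second probe set of Ube2d2b was at or under the floor on all 4 arrays, and the set described has an ending that marks relaxed rules of probe choice. Ube2d transcripts are close in sequence, and binding of one by another's probes was not tested. The pseudogene Ube2d-ps read 26.5 in type A, 47 in type B, 158 in pachytene and 247 in round spermatids by the set that stands for it. These signals were low throughout, and against the highest negative control pachytene was at least 1.53-fold over type B. Its 2 other sets were highest in pachytene, not in round spermatids. One read 97.5 in type A, 134 in type B, 152 in pachytene and 78.2 in round spermatids, only 1.13-fold higher in pachytene than in type B. The other read 12.6 in type A, 18.1 in type B, 108 in pachytene and 61.8 in round spermatids.

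**Figure D3:**
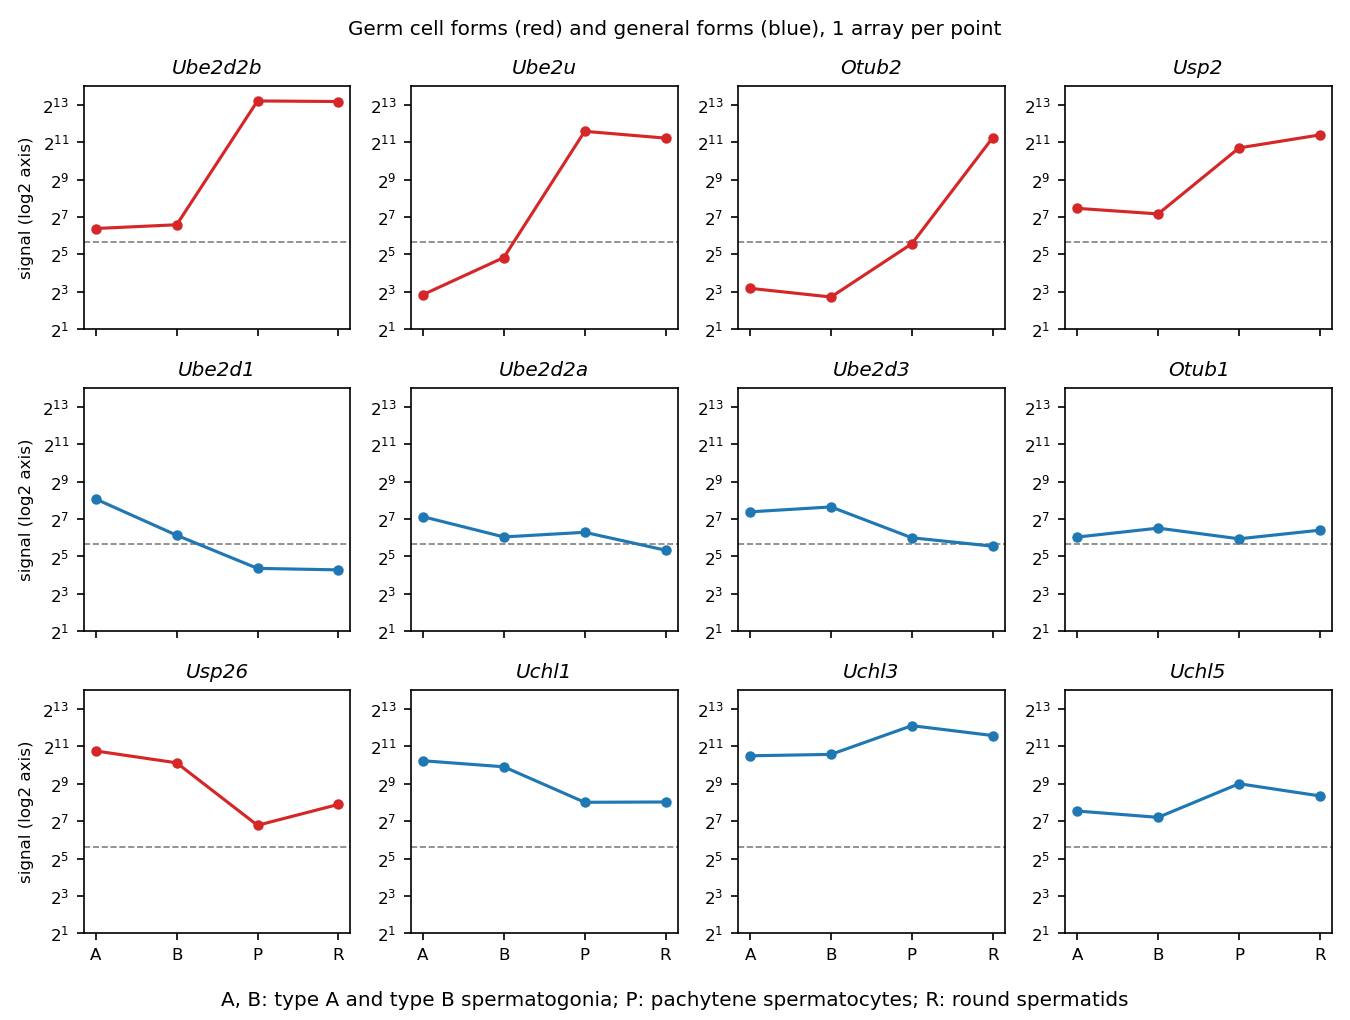
Signal of 12 members in each cell type on a log2 axis (A, type A; B, type B; P, pachytene; R, round spermatids), 1 array per point, with the floor as a dashed line. Among the germ cell forms (red), Ube2d2b, Ube2u and Usp2 are high in both later cell types. Otub2 is high in round spermatids alone and Usp26 is highest in type A. Of the forms listed as general (blue), Ube2d1, Ube2d2a, Ube2d3 and Uchl1 end lower in round spermatids than in type A. Otub1 stays near the floor, and Uchl3 and Uchl5 are highest in pachytene.

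Of the 29 E2 genes, 5 were higher by 2-fold or more in pachytene than in type B (Ube2b, Ube2d2b, Ube2j1, Ube2s and Ube2u) and 4 were lower (Ube2d3, Ube2e1, Ube2g1 and Ube2z), beside 13.2% and 17.9% of all genes, and both counts were near that background. Ube2u, an E2 known mostly from the testis and with 1 probe set here, read 7.20 in type A, 28.5 in type B, 3057 in pachytene and 2377 in round spermatids. The spermatogonia were under the floor and the later cell types far over it. Pachytene was thus at least 61.1-fold higher than type B, or at least 29.5-fold against the highest negative control. The probe set of Ube2u has an ending that marks relaxed rules of probe choice, and binding of other transcripts was not tested. Ube2s, which lengthens ubiquitin chains for the anaphase-promoting complex, read 293 in type A, 217 in type B, 1372 in pachytene and 1604 in round spermatids. It was 6.34-fold higher in pachytene than in type B, while its other probe set gave 1.79-fold. Ube2t, the E2 that monoubiquitylates the Fanconi anaemia protein Fancd2, read 303 in type A, 412 in type B, 724 in pachytene and 162 in round spermatids. It was highest in pachytene and 4.48-fold lower in round spermatids. Ube2c, which starts chains for the anaphase-promoting complex, was over the floor in round spermatids alone, at 68.2.

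Ube2j1, an E2 anchored in the membrane of the endoplasmic reticulum, where misfolded proteins are marked for degradation, read 1960.1 in type A, 1686 in type B, 5089 in pachytene and 11894 in round spermatids. It was 3.02-fold higher in pachytene than in type B and 2.34-fold higher again in round spermatids. Another probe set of the gene did not show this: it read 268 in type A, 264 in type B, 395 in pachytene and 266 in round spermatids. The signals of the related Ube2j2 were 74.4 in type A, 135 in type B, 92 in pachytene and 45.6 in round spermatids. Ube2g2, also of that degradation route, stayed within 1.29-fold over all 4 cell types. Ube2g1 read 481 in type A, 523 in type B, 137 in pachytene and 143 in round spermatids. Both later cell types were well under both spermatogonia in this gene, with pachytene 3.83-fold lower than type B, and its second probe set gave 3.07-fold lower.

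Ube2a and Ube2b are the mouse forms of yeast RAD6, which ubiquitylates histone H2B and the replication clamp, and Ube2a is on the X chromosome. Ube2a was near or under the floor on all arrays, at 49.8 in type A, 57 in type B, 3.0 in pachytene and 12 in round spermatids. Ube2b had 3 probe sets that went opposite ways. The one with the highest mean read 149 in type A, 129.5 in type B, 375 in pachytene and 236 in round spermatids, 2.89-fold higher in pachytene than in type B. The next read 296 in type A, 274 in type B, 62.8 in pachytene and 83.1 in round spermatids, 4.36-fold lower. The third read 116 in type A, 101 in type B, 38 in pachytene and 30.5 in round spermatids. Its probe sets therefore settle no direction for Ube2b. Of the promoters listed for Ube2b, 1 holds the whole cAMP response element.

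Ube2n builds chains for DNA repair and signalling together with a partner that has no catalytic cysteine, Ube2v1 or Ube2v2. Its signals were 1169 in type A, 926 in type B, 939 in pachytene and 1778 in round spermatids, and its other probe sets were at least 2-fold apart between type A and type B in opposite directions. Ube2v1 read 847 in type A, 779.8 in type B, 671 in pachytene and 533 in round spermatids, a decline within 1.59-fold. Ube2v2 read 95.2 in type A, 72.6 in type B, 34.3 in pachytene and 172 in round spermatids. Round spermatids were at least 3.45-fold over pachytene in this gene, where pachytene was under the floor. Ube2f, which conjugates the ubiquitin-like NEDD8, was 2.07-fold lower in round spermatids (100.4 in type A, 131 in type B, 112 in pachytene and 54 in round spermatids), while its other probe set gave 1.79-fold higher. Its round spermatid signal was below the highest negative control, and against that control the ratio was at least 1.90-fold and so no longer 2-fold. Ube2w, which joins ubiquitin to the start of a protein, read 195 in type A, 85.5 in type B, 145 in pachytene and 54 in round spermatids. It was 2.28-fold lower in type B than in type A and 2.69-fold lower in round spermatids than in pachytene, and both lower signals were below the highest negative control of the design, against which the ratios were at least 1.88-fold and at least 2.46-fold.

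The E2 members lower in pachytene included 2 more genes with small ratios. Ube2z, which takes ubiquitin from the E1 enzyme Uba6, read 322 in type A, 293 in type B, 117 in pachytene and 132 in round spermatids, 2.49-fold lower in pachytene than in type B. Ube2e1 read 220.1 in type A, 242 in type B, 115 in pachytene and 115 in round spermatids, 2.11-fold lower. Neither reached 2-fold with arrays set to a common median (log2 ratios of -0.80 and -0.56), nor with the spike-in controls. The related Ube2e2 read 294 in type A, 259 in type B, 139.8 in pachytene and 81.3 in round spermatids, lower at each step and never by 2-fold. Ube2r2 had a similar order, from 541.0 in type A to 188 in round spermatids, and its other probe set was 2.61-fold lower in pachytene than in type B. Ube2k, the member with the most probe sets (6), read 143 in type A, 169 in type B, 109 in pachytene and 116 in round spermatids by the set that stands for it. Another set was at least 3.67-fold lower in pachytene than in type B, a further set at least 2.08-fold lower and another 1.30-fold lower. The rest were under the floor in both. Ube2o, Ube2q1, Ube2q2 and Ube2ql1 were close to level over the 4 cell types by the probe set that stands for each, the widest span being that of Ube2q1 at 1.45-fold. The 2 other probe sets of Ube2q2 were 2.62-fold and 3.65-fold higher in pachytene than in type B, however, and the other set of Ube2q1 was at least 3.40-fold higher.

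Of the 46 USP genes, 11 were higher in pachytene than in type B by 2-fold or more and 8 were lower, beside 13.2% and 17.9% of all genes, and the count of the lower was near that background. Usp2, a deubiquitinase known for high expression in the testis, read 176 in type A, 143 in type B, 1652 in pachytene and 2677 in round spermatids, and its second probe set read 202 in type A, 161 in type B, 1663 in pachytene and 1277 in round spermatids. Both sets put the later cell types far above the spermatogonia: pachytene was 11.5-fold and 10.3-fold over type B. From pachytene to round spermatids the sets went apart, by 1.62-fold higher and 1.30-fold lower. Usp1, which removes ubiquitin from Fancd2 and the replication clamp, read 326 in type A, 332 in type B, 2047 in pachytene and 2258 in round spermatids. It was 6.17-fold higher in pachytene than in type B, while its other probe set stayed between 66.9 and 94.6. Usp16, a deubiquitinase of histone H2A, read 79.2 in type A, 56.3 in type B, 323 in pachytene and 491 in round spermatids, 5.74-fold higher in pachytene than in type B, where the type B signal was below the highest negative control of that design (at least 5.18-fold against it).

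Usp15, which edits ubiquitin in several signalling routes, read 209 in type A, 176 in type B, 447 in pachytene and 1574 in round spermatids. It was 2.55-fold higher in pachytene than in type B and 3.52-fold higher again in round spermatids, which its other probe set over the floor did not show (between 30.1 and 81.9). Usp8, which acts on endosomes when receptors are sorted, read 267 in type A, 172 in type B, 726 in pachytene and 768 in round spermatids. Pachytene was 4.22-fold over type B and near round spermatids. Usp20 read 292 in type A, 286 in type B, 1048 in pachytene and 669 in round spermatids, and its 3 probe sets were 3.66-fold, at least 6.61-fold and at least 2.47-fold higher in pachytene than in type B. Usp32 read 247 in type A, 189.7 in type B, 870.3 in pachytene and 553 in round spermatids, with pachytene 4.59-fold over type B. A second set of Usp32 gave at least 4.49-fold higher and another was under the floor in pachytene.

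The remaining USP genes of this direction were Usp4 (2.67-fold), Usp42 (2.14-fold), Usp24 (2.20-fold) and Usp45 (2.72-fold higher in pachytene than in type B). Usp24 and Usp45 were high in pachytene and lower on both sides of it. Usp24 read 458 in type A, 221 in type B, 486 in pachytene and 190.5 in round spermatids, with type A close to pachytene. Usp45, which acts on the DNA repair nuclease subunit Ercc1, read 91.9 in type A, 70.3 in type B, 191 in pachytene and 77.9 in round spermatids. It was the sole member to exceed all other cell types 2-fold in pachytene (1.06% of members, 3.03% of all genes).

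Usp26, an X-linked deubiquitinase known from the testis, was the member with the widest change in the lower direction. It read 1723 in type A, 1111 in type B, 109.8 in pachytene and 238 in round spermatids. Pachytene was 10.1-fold lower than type B, and round spermatids were 2.17-fold over pachytene, still under both spermatogonia. Usp28, known for binding the DNA damage protein 53BP1, read 823 in type A, 455 in type B, 168 in pachytene and 154 in round spermatids, 2.70-fold lower in pachytene than in type B. Usp48 read 493 in type A, 282 in type B, 116 in pachytene and 63.6 in round spermatids, lower at each step, with 2.44-fold between type B and pachytene. Another probe set of Usp48 went the other way there (at least 2.31-fold higher), so its probe sets settle no direction. Usp22, the deubiquitinase of the SAGA complex on histone H2B, read 1204 in type A, 1038 in type B, 431 in pachytene and 392 in round spermatids. It was 2.41-fold lower in pachytene than in type B.

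Usp35 and Usp36 were under the floor in pachytene. Usp35 read 244 in type A, 212 in type B, 42.9 in pachytene and 67.2 in round spermatids, and Usp36, a nucleolar deubiquitinase, read 130.3 in type A, 154 in type B, 27.9 in pachytene and 36.1 in round spermatids. Their pachytene signals were at least 4.24-fold and at least 3.07-fold lower than those of type B, the first at least 3.47-fold against the highest negative control. Usp12 (at least 2.31-fold) and Usp13 (2.18-fold) were lower by smaller ratios. With arrays set to a common median, Usp12, Usp13, Usp22, Usp28 and Usp48 were lower by under 2-fold, at log2 ratios of -0.88, -0.53, -0.67, -0.84 and -0.77. Usp3, which acts on histones H2A and H2B, missed 2-fold by the set that stands for it (558 in type A, 611 in type B, 362 in pachytene and 425 in round spermatids), while its other 2 sets over the floor were 3.28-fold and 4.45-fold lower in pachytene than in type B.

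Like the members lower in both later cell types, fibroblast and peritubular myoid markers had lower summed signals there than in both spermatogonia. From type A to type B these sums were higher. Among those members, Ube2d3, Ube2g1 and Usp36 were higher at that step too and the others were lower, all by under 2-fold. The summed signal of 5 fibroblast markers was 3959 in type A, 8958 in type B, 114 in pachytene and 352 in round spermatids, and that of 5 peritubular myoid markers was 2460.0, 3615, 475 and 345. All 5 fibroblast markers were over the floor in both spermatogonia and 1 of 5 was in each later cell type. Col1a1, Col1a2, Col3a1 and Lum were under the floor in pachytene and round spermatids. The part of such cells in the lower signals of Uchl1, Usp22 and the others was not tested. In RNA of a whole cell preparation, fewer cells of a type and less RNA per cell cannot be told apart. The 7 Sertoli markers summed to 4920.0, 3679.6, 3136 and 1359, and the 5 macrophage markers to 298, 533, 125 and 161. Much of the Sertoli sum was Clu, at 3237, 2190, 1717 and 214. Clu, Wt1, Sox9 and Inhbb were lower in both later cell types than in both spermatogonia. Cst12 was higher there, at 356, 478, 760 and 659, Rhox5 was highest in pachytene and Amh was under the floor throughout. The 5 Leydig markers summed to 393, 681, 663 and 182, with pachytene close to type B.

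Between pachytene and round spermatids, 3 of the 46 USP genes were higher by 2-fold or more (Usp15, Usp25 and Usp26). The 5 lower were Usp10, Usp24, Usp40, Usp45 and Usp46. All genes stood at 7.39% higher and 9.63% lower, and both counts were near that background. Usp46, which needs the same WD-repeat cofactor as Usp1 and Usp12, read 596 in type A, 353 in type B, 319 in pachytene and 18.5 in round spermatids. Round spermatids were at least 6.37-fold under pachytene, or at least 5.41-fold against the highest negative control, and the 3 other sets of the gene were lower too, by 2.54-fold, 2.73-fold and at least 3.21-fold. Those sets did not agree about earlier cells: 2 of the 4 were over 2-fold higher in pachytene than in type B. Usp40 read 149.6 in type A, 159 in type B, 166 in pachytene and 22 in round spermatids, at least 3.32-fold lower in round spermatids, or at least 2.81-fold against the highest negative control of that array. With the floor at the highest negative control of the design on any array the log2 ratio of Usp40 was -0.68, under 2-fold. Usp10, which acts on p53, read 227 in type A, 147 in type B, 148 in pachytene and 66.1 in round spermatids, 2.23-fold lower. Usp25 alternated, at 107 in type A, 317 in type B, 165 in pachytene and 344 in round spermatids, and its other probe set over the floor stayed between 63.2 and 85.3.

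Several general USP genes were close to level by the set that stands for each. Usp7, which acts on the p53 ligase Mdm2, read 491 in type A, 351 in type B, 352 in pachytene and 363 in round spermatids, although another of its sets was 2.02-fold higher in round spermatids than in pachytene. Usp19 and Usp31 stayed within 1.51-fold and 1.35-fold over the 4 cell types by the set that stands for each. The other set of Usp19 was 2.39-fold lower in type B than in type A and 3.51-fold higher in pachytene than in type B. Another set of Usp31 read 443 in type A, 151 in type B, 49.99 in pachytene and 19.2 in round spermatids, a steep decline. Usp14, a deubiquitinase that sits on the proteasome, read 298 in type A, 199 in type B, 149 in pachytene and 110.1 in round spermatids, lower at each step by at most 1.5-fold. Usp5, which takes apart free ubiquitin chains, stayed within 1.74-fold. Usp34 was 1.90-fold lower in type B than in type A and then nearly level.

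The 3 UCH genes differed from each other. Uchl1, abundant in spermatogonia and neurons, read 1199 in type A, 959 in type B, 258 in pachytene and 260.4 in round spermatids. The spermatogonia were high and the later cell types low and alike, with pachytene 3.72-fold under type B. Uchl3, which cleaves small adducts from ubiquitin and NEDD8, read 1442 in type A, 1519 in type B, 4400.1 in pachytene and 3051 in round spermatids, the reverse order, with pachytene 2.90-fold over type B. Uchl5, the second deubiquitinase of the proteasome, read 186 in type A, 147 in type B, 512 in pachytene and 326 in round spermatids. Its 3 probe sets over the floor were 3.48-fold, 4.17-fold and 3.02-fold higher in pachytene than in type B.

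Among the 10 OTU genes, Otub2 stood out in round spermatids. Its main probe set read 9.10 in type A, 6.60 in type B, 47.5 in pachytene and 2412 in round spermatids. It was under the floor in 3 cell types and at least 48.2-fold higher in round spermatids than in pachytene. The next set read 11.4 in type A, 95.2 in type B, 76.4 in pachytene and 1503 in round spermatids, 19.7-fold higher at that step. Another read 58.9 in type A, 124 in type B, 154 in pachytene and 612 in round spermatids, 3.98-fold higher. The 2 remaining sets were not higher in round spermatids: one read 157 in type A, 206 in type B, 119.9 in pachytene and 119 in round spermatids, the other 463 in type A, 418 in type B, 375 in pachytene and 304 in round spermatids. Otub1, the general form, which also blocks E2 enzymes such as Ube2n, read 65.7 in type A, 91.5 in type B, 61.6 in pachytene and 84.8 in round spermatids, within 1.49-fold in all and near the floor.

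**Figure D4:**
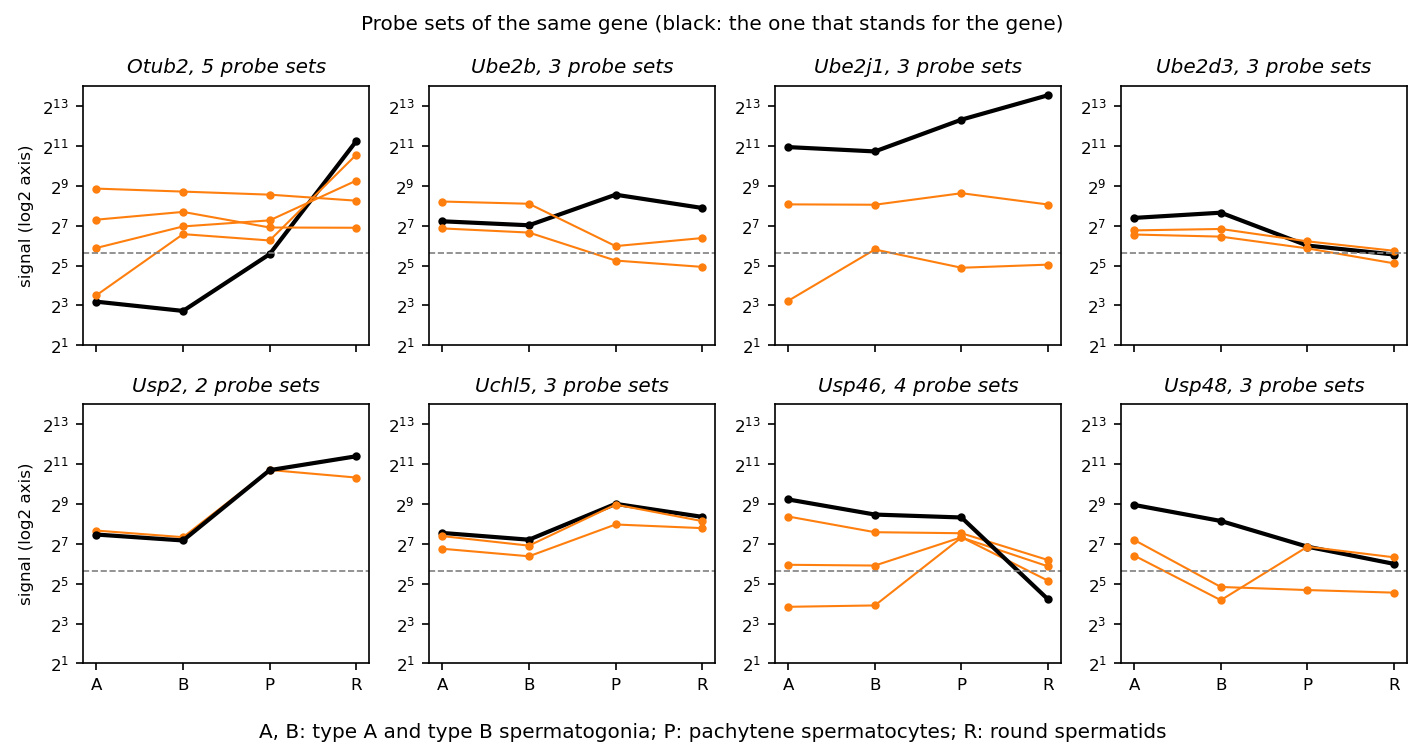
Signals on a log2 axis of every probe set over the floor for 8 members (A, type A; B, type B; P, pachytene; R, round spermatids), with the set that stands for the gene in black and the floor dashed. The sets of Usp2, Uchl5 and Ube2d3 run together up to pachytene, those of Usp46 share the drop to round spermatids, 3 of the 5 sets of Otub2 share the increase to round spermatids, and those of Ube2b and Usp48 cross.

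Otud5, an X-linked OTU gene, read 636 in type A, 481 in type B, 65.7 in pachytene and 211 in round spermatids. It was 7.32-fold lower in pachytene than in type B and 3.21-fold higher again in round spermatids, by a set whose ending marks relaxed rules of probe choice. Its next set read 85.9 in type A, 71.5 in type B, 60.8 in pachytene and 11.3 in round spermatids. That set was 1.18-fold lower in pachytene than in type B and lower again in round spermatids, not higher. Otud4 had the same order of signals as the main set of Otud5, at 965 in type A, 565 in type B, 169 in pachytene and 386 in round spermatids. Another set of Otud4 read 165 in type A, 107 in type B, 63 in pachytene and 641 in round spermatids, 10.2-fold higher in round spermatids than in pachytene. Otud7b, which prefers the chain type that Ube2s builds, read 48.2 in type A, 57.9 in type B, 278 in pachytene and 162 in round spermatids, 4.79-fold higher in pachytene than in type B, where the type B signal was below the highest negative control (at least 4.45-fold against it). Otud3 stayed within 1.32-fold by its main set, but another read 399.6 in type A, 173 in type B, 1276 in pachytene and 508 in round spermatids, 7.38-fold higher in pachytene than in type B. Otud6b read 1956 in type A, 2371 in type B, 1740.3 in pachytene and 3129 in round spermatids, highest in round spermatids and under 2-fold. Otulin, which cleaves linear chains, stayed within 1.45-fold.

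**Figure D5:**
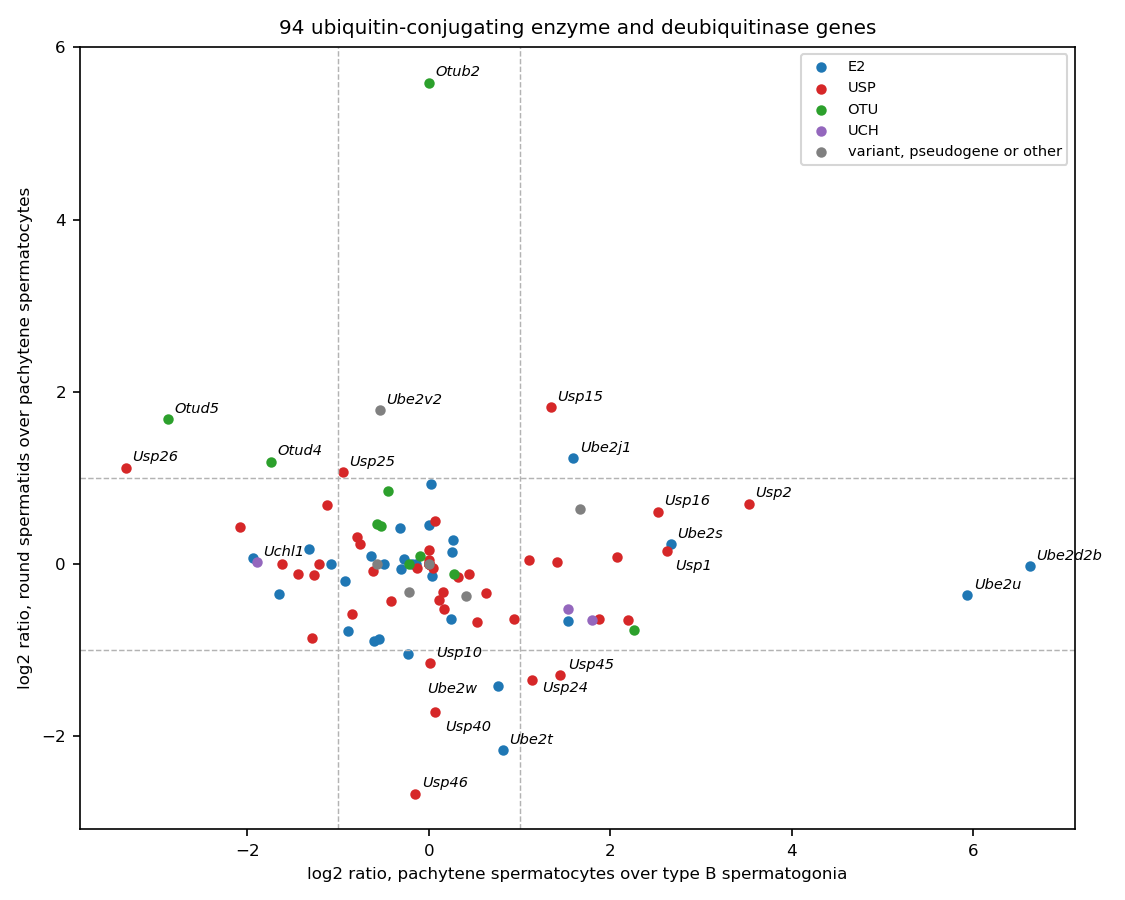
Each point is 1 of the 94 members, placed by its log2 ratio between type B and pachytene (horizontal) and between pachytene and round spermatids (vertical), with dashed lines at 2-fold and colours for the enzyme classes. Ube2d2b and Ube2u lie far right at 6.62 and 5.93 with no further change, Otub2 lies at the top at 5.59, and Usp26, Otud5 and Otud4 lie left and above the upper dashed line.

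Between type A and type B few members differed. Ube2d1, Ube2d2a, Ube2w and Usp24 were at least 2-fold lower in type B, the last by 2.07-fold, and Usp13 and Usp25 were higher. Usp13 read 45 in type A, 161 in type B, 73.7 in pachytene and 118 in round spermatids, at least 3.21-fold higher in type B, or at least 2.91-fold against the highest negative control. Its other sets were 1.2-fold and at least 1.89-fold higher in type B than in type A. Spike-in controls read higher on the type B arrays, and with arrays set to them the median log2 ratio of all genes at this step was -0.51. In that setting 43 members (45.7%) were lower and 0 higher, beside 25% and 0.288% of all genes. Just 1 member exceeded all other cell types 2-fold in type A, Ube2d1 (1.06%, all genes 1.43%), and 0 were in type B (all genes 1.13%). In round spermatids 3 were so: Otub2, Usp15 and Ube2j1 (3.19%, all genes 4.74%).

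The 5 X-linked members were Ube2a, Otud5, Usp9x, Usp11 and Usp26. Of these, 2 (Usp26 and Otud5) were at least 2-fold lower in pachytene than in type B, as were 196 of 515 X-linked genes. Both were at least 2-fold higher in round spermatids than in pachytene, as were 62 of the 515. The next set of Otud5 was 1.18-fold lower at the first of these steps and at least 1.22-fold lower at the second. Usp9x, a deubiquitinase of many targets, read 402 in type A, 261 in type B, 145 in pachytene and 96.8 in round spermatids, lower at each step by under 2-fold. Usp11 read 439.7 in type A, 239.5 in type B, 327 in pachytene and 301 in round spermatids. Its other probe set was 4.37-fold lower in pachytene than in type B and 2.09-fold higher in round spermatids. Among the listed forms, 3 of 6 germ cell forms on the arrays (Ube2d2b, Ube2u and Usp2) were at least 2-fold higher in both later cell types, 1 of 8 general forms (Uchl3) was, and 7.35% of all genes were. With so few genes in each list no difference between the lists is drawn from these counts. Usp26 and, among the forms listed as general, Ube2d3 and Uchl1 were at least 2-fold lower in both, and Usp29 was at the floor throughout. Uchl1 is in that list although it is abundant in spermatogonia and neurons. The forms were listed with earlier results of these data known.

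Probe sets of the same gene gave a partial check. Of the 35 members called between type B and pachytene, 22 had another probe set over the floor: in 9 another set was 2-fold apart the same way, in 2 another was so the opposite way (Ube2b and Usp48), and in 11 the others were under 2-fold. Between type A and type B 2 of 6 had another set (Usp13 and Usp25), with 0 the same way at 2-fold, 0 opposite and 2 under 2-fold. Between pachytene and round spermatids 9 of 16 had another set, with 4 the same way, 0 opposite and 5 under 2-fold. As a measure of technical spread, control probe sets present on all 3 designs differed between designs with an SD of the log2 ratio of 0.22, 0.22 and 0.43 at the 3 steps. Spermatogonia markers did not tell type A from type B: of 6 undifferentiated spermatogonia markers, 5 were over the floor in type A, 6 in type B, 3 in pachytene and 4 in round spermatids, with summed signals of 1529 and 1468 in type A and type B, 336 in pachytene and 988 in round spermatids. Within that list Zbtb16, Gfra1 and Lin28a were lower in type B than in type A, Sall4 and Utf1 were higher and Taf4b was nearly level. The 5 differentiating spermatogonia markers summed to 4339 in type A, 4698 in type B, 409 in pachytene and 1047 in round spermatids. Of these, Kit read 385 in type A, 202 in type B, 40.6 in pachytene and 77.9 in round spermatids. In type A and type B, Dmrt1 read 1195 and 659, Ccnd2 69.4 and 36.4, Stra8 482 and 493, and Rhox13 2208 and 3308. Ldhc, a meiotic and later enzyme, read 2.90 in type A, 1.70 in type B, 8691 in pachytene and 10651 in round spermatids, and the spermatid protamine gene Prm1 read 2.50 in type A, 5.70 in type B, 1321 in pachytene and 14319.9 in round spermatids. Prm2 and Spaca1 were low in round spermatids, at 67.3 and 20.5, and Sycp3 read 60.4 in pachytene.

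Other genes of the pathway were taken from lists of E1 and related enzymes, E2, deubiquitinase and related genes of other names, and E3 ligases. On the arrays were 84 of them. Of these, 18 were at least 2-fold higher and 16 lower in pachytene than in type B, beside 13.2% and 17.9% of all genes. In round spermatids 5 were higher and 11 lower than in pachytene, beside 7.39% and 9.63% of all genes. The lower count at the first step was near the background. Of 6 E1 genes, 0 were higher and 3 were lower in pachytene than in type B. Uba6, the E1 that charges Ube2z, read 553 in type A, 957 in type B, 173 in pachytene and 231 in round spermatids, and so was 5.53-fold lower in pachytene. Uba1y, the Y-linked copy of the main E1, read 261 in type A, 188 in type B, 30.8 in pachytene and 82.6 in round spermatids. Of 24 deubiquitinase and related genes of other names, 6 were higher in pachytene than in type B (Stambp, Cops5, Psmd7, Uspl1, Senp2 and Senp6). The 2 lower were Cyld and Senp7, beside 13.2% of all genes higher and 17.9% lower. That list also holds the Senp genes and subunits of larger complexes, and is not one of deubiquitinases alone. Stambpl1, which trims chains on endosomes, read 141 in type A, 87.4 in type B, 150.3 in pachytene and 1827 in round spermatids, 12.2-fold higher in round spermatids than in pachytene. Cops5, the catalytic subunit of the COP9 signalosome, read 167 in type A, 207 in type B, 703 in pachytene and 1055 in round spermatids.

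Among 46 E3 genes, 12 were higher and 10 lower in pachytene than in type B, beside 13.2% and 17.9% of all genes. Mkrn1, a RING ligase, read 276 in type A, 163 in type B, 2138 in pachytene and 2242 in round spermatids, 13.2-fold higher in pachytene. Ubr2, which recognises protein ends and is needed in male meiosis, read 512 in type A, 363 in type B, 25.1 in pachytene and 29.7 in round spermatids, at least 7.26-fold lower. Huwe1, an X-linked ligase, read 848 in type A, 461 in type B, 73.7 in pachytene and 141 in round spermatids, 6.26-fold lower. Klhl10, a germ cell partner of the ligase Cul3, read 4.90 in type A, 10.0 in type B, 98.8 in pachytene and 3851 in round spermatids, 39-fold higher in round spermatids than in pachytene. Cul3 itself read 959 in type A, 694 in type B, 1710.0 in pachytene and 2001 in round spermatids. The E2 gene Cdc34, which serves cullin ligases, read 181 in type A, 266 in type B, 358 in pachytene and 1314 in round spermatids, 3.67-fold higher in round spermatids than in pachytene.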

How the data were processed

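The authors deposited linear intensity values, 1 for each probe set. The submitters' processing notes name MAS5, whose version and settings are not given in the sources used here. Deposited arrays had 2% trimmed means of 125.02 to 125.10. All arrays of a design were brought to the geometric mean of those means, values under 0.4 of it were set to that floor, and log2 was taken (Python 3.11.15, pandas 2.3.3). Of 36701 probe sets 29131 had 1 symbol in the platform annotation, and all 94 member genes matched RefSeq. Where a gene had several probe sets, the brightest on average over the 4 cell types stood for it. Designs were scaled separately, so ratios stay within a design. With 1 array per cell type no statistical test was run; the number of arrays limits the precision. Genes at 2-fold were counted over all genes, those at the floor included. The calling of genes was checked on simulated data with changes well over 2-fold in genes well above the floor. Changes of about 2-fold or near the floor were not simulated, and the simulated noise was smaller than the technical spread given above. That check therefore does not cover such calls. Named were the listed germ cell and general forms, the members with the widest ratios at each step, X-linked members and members with opposing probe sets; others, and the probe sets shown, were chosen after their values were seen. Members and lists were chosen with earlier results of these data known. Probe sets with several symbols (4 matching) were left out, and Ube2m, Uchl4, Otud6a and Usp9y are not analysed here. Scalings, floors and probe set rules were varied.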

Additional observations from a re-analysis of the deposited data

How the results depend on the processing

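No paired analysis was possible because each cell type has 1 array per design, and no array could be left out. Deposited values without further scaling, and members chosen by updated symbol, gave the counts of the report. Counts are of members at least 2-fold apart. Type B over type A (2 higher, 4 lower) moved to 0 higher and 43 lower with spike-in scaling. All genes stood at 0.288% higher and 25% lower in that setting. The counts were 1 and 2 with the floor at 0.8 of the trimmed mean, and 5 higher with no floor. They were 0 and 2 with the mean over probe sets, and 1 higher without special endings or on U74Av2 only. Pachytene over type B (20 higher, 15 lower) moved to 8 lower with a common median or the mean over probe sets, 6 with spike-in scaling and 23 with no floor; U74Av2 alone, with 56 members, gave 10 higher and 8 lower. Round spermatids over pachytene (8 and 8) moved to 3 lower with the floor at 0.8, 13 higher and 14 lower with no floor, 3 higher with the mean over probe sets, 5 higher without special endings, and 5 higher and 3 lower on U74Av2 only. With the floor at the highest negative control, chosen after seeing the data, 5 were lower. Of 57 single ratios called, 50 stayed at 2-fold with a common median, 42 with spike-in scaling and 31 with the mean over probe sets. Sign changed for Ube2b between type B and pachytene (log2 ratio -0.53 with the mean over probe sets) and, between pachytene and round spermatids, without special endings for Otud5 (-0.28), Ube2j1 (-0.57) and Ube2f (0.84, also on U74Av2 only). Without special endings Ube2d2b was at the floor at every step (log2 ratio 0), and Ube2u had no probe set left. Beyond the construction of each alternative the cause was not tested. Signals near the floor are not told from background.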
